A study of Arabidopsis thaliana with 116 samples.

Results

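Nuclear pseudogenes are loci that resemble genes but that the annotation does not credit with an intact product, and in Arabidopsis thaliana many of them are remains of transposons or of broken gene copies. All probe sets tied to 1 nuclear gene of the RefSeq biotype pseudogene (assembly TAIR10.1) were taken, leaving out the stretch of locus tags that starts with AT2G07, where a copy of mitochondrial DNA lies in chromosome 2. This gave 899 probe sets for 899 pseudogenes, of 22746 probe sets tested on the array and 23.4% of the 3836 such pseudogenes in the gene table. The rule used the annotation and no measured value, though it was set with earlier results of these data known. The table gave no descriptions and a symbol for only 1 of them, CYTOSLEEPER (AT1G15300), so transposon remains and other pseudogenes could not be told apart.

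RNA was taken from seeds harvested 10 to 11 days after flower opening, in 116 recombinant inbred lines whose parents were Col-0 and C24. Such lines are nearly homozygous mosaics of the parents, and they carried no transgene or treatment. Of these, 59 are named with the letter Q and 57 with the letter R. The crosses were made in both directions, no label ties a letter to a direction, and 8 siliques of each of 6 plants were pooled per line. Each line had 1 Affymetrix array, so every p-value measures spread between lines and holds no estimate of the spread within a line. Array medians lay between 5.84 and 5.99 log2. Embryo storage markers were very bright, with 5 of 9 listed genes measured at means of 13.1 to 13.8 log2. The seed coat tannin genes DFR and BAN had means of 7.91 and 8.68, and the endosperm genes AGL62 and IKU2 had means of 3.24 and 4.35. In RNA of whole seeds, fewer cells of a type and less RNA per cell cannot be told apart.

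In plants, transposons and many pseudogenes are kept silent by DNA methylation, by histone H3 lysine 9 methylation and by small RNAs that guide methyltransferases, and transcripts with early stop codons are removed by nonsense-mediated decay. Silencing is partly relaxed in the endosperm of seeds, and accessions differ in which transposon copies they carry and in how these are methylated. Of 39 silencing and decay genes listed for comparison, 3 had a probe set that the annotation tied to them, and the other listed genes were not analysed here. The glycosylase DME, which removes DNA methylation in the central cell, had a mean of 6.70 log2. The decay factors UPF2 and UPF3 had means of 6.23 and 7.62. None of the 3 was called between Q and R lines or for linkage.

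The pseudogenes were dim. Their median signal was 3.65 log2 (middle 50% of probe sets 3.25 to 4.26), against 5.81 (4.27 to 7.46) for 12336 probe sets of other nuclear genes. Of the 899, 596 (66.3%) lay under 4 log2, where 18.7% of the other nuclear probe sets lay, and 79 (8.79%) reached 5 log2 against 61.1%. Only 3 reached 7 log2, against 4004 of the others. The comparison genes were almost all protein-coding, and 1477 of them carried a symbol besides the locus tag, since the probe annotation held here leaves many well-known genes unnamed. Probe sets of different genes differ in how strongly they bind, so these levels describe the array and not transcript numbers. No detection call came with the values, and the share of the pseudogenes that lay at the array's background was not measured. A separate biotype of 65 transcribed pseudogenes, which were not members, had a median of 3.96.

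**Figure D1:**
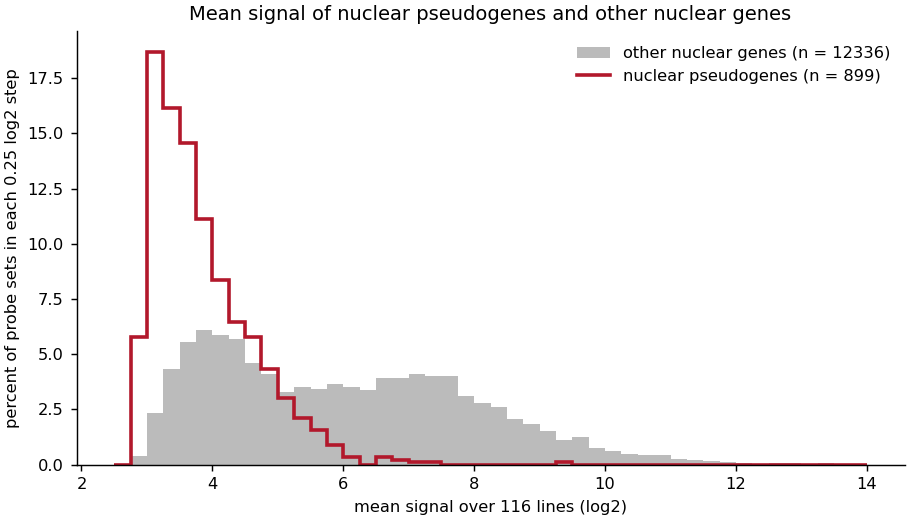
Distribution of the mean log2 signal over 116 lines for 899 nuclear pseudogenes (red line) and 12336 other nuclear probe sets (grey), as the percent of each class in steps of 0.25 log2. The pseudogenes pile up at the dim end, with a median of 3.65 against 5.81, and 3 of them reach 7 log2.

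A few pseudogenes were bright in all lines. AT3G31955 had the highest mean, 9.30 ± 0.17 log2 (SD, n = 116), above 93.9% of the other nuclear probe sets. In Q lines its lowest, median and highest signals were 8.89, 9.31 and 9.64, and in R lines 8.85, 9.25 and 9.81, so the letters overlapped over nearly the whole range. Its probe set ID ends in _s_at, the manufacturer's mark for probes that match several transcripts, and its signal may hold more than 1 locus. AT4G08220 followed with a mean of 7.35 ± 0.17, a lowest, median and highest of 6.92, 7.36 and 7.69 in Q lines, and of 6.87, 7.34 and 7.67 in R lines. AT5G20880 had a mean of 7.21 ± 0.24, with 6.57, 7.23 and 7.59 in Q lines and 6.48, 7.24 and 7.63 in R lines. These 2 probe sets carry no mark of shared probes, and both were bright in every line of both letters. The next 12 by mean, from 6.95 down to 5.81, were AT5G50315, AT1G80020, AT5G34900, AT2G06430, AT3G47310, AT2G22350, AT3G14800, AT1G31100, AT2G06190, AT4G10690, AT5G14830 and AT2G13160. Some of these also have IDs that mark shared probes, among them AT5G34900, AT2G06430 and AT3G47310, and such signals may hold more than 1 locus.

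Marks of shared probes were common among the pseudogenes and rare among the other nuclear probe sets. Both classes hold only probe sets that the annotation ties to a single gene. How common the marks are in the rest of the array was not measured. Of the 899 probe sets, 109 ended in _s_at and 78 in _x_at (probes that partly match other sequences), together 20.8%, against 0.535% of the other nuclear probe sets. The _x_at pseudogenes had a median signal of 4.38 and a median SD over lines of 0.199, the _s_at ones 3.54 and 0.112, and the 712 unmarked ones 3.63 and 0.114. A value of a marked probe set may sum several copies of a repeat.

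Most pseudogenes also varied little between lines. The median SD was 0.117 log2 against 0.166 for the other nuclear probe sets, and the median distance from the lowest to the highest line was 0.62 against 0.89. Dim probe sets vary less on this array, so pseudogenes and others were also compared within classes of mean signal. Under 4 log2 the median SD was 0.100 for pseudogenes and 0.114 for the others. From 4 to 5 log2 it was 0.151 and 0.152, and from 5 to 7 log2 it was 0.172 and 0.193. The gap in spread between pseudogenes and others was thus smaller within each of these classes than over all probe sets. Signal was closely matched only from 4 to 5 log2, with medians of 4.42 and 4.43. Under 4 log2 the medians were 3.38 and 3.61, and from 5 to 7 log2 they were 5.43 and 6.03.

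The most variable pseudogenes fell into different shapes. AT2G06390 had the largest SD, 0.85 log2, above that of 99.2% of the other nuclear probe sets. Its lowest, median and highest signals were 3.14, 4.01 and 6.29 in Q lines and 3.27, 3.98 and 6.11 in R lines. Its values were spread over the whole range in both letters, with 28 lines at least 1 log2 above the median of 3.99. AT1G35612, with an SD of 0.77, was near its floor in most lines (Q 3.28, 3.62 and 7.09, R 3.28, 3.56 and 5.65), and 23 lines lay at least 1 log2 above its median of 3.58. AT5G50315 was both bright and variable, with an SD of 0.55, at 5.67, 6.98 and 8.69 in Q lines and 5.75, 6.79 and 8.21 in R lines. The plot of the most variable pseudogenes shows that none of these was confined to 1 letter.

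Other large SDs came from 1 or 2 lines. AT3G47320 reached 9.51 log2 in line Q220, while the next line, Q039, stood at 4.74 and the median at 3.29. The 16 measured genes within 25 places of it in gene order deviated from their own medians in Q220 by -0.36 to 0.55. AT1G43590 reached 8.41 in Q039 and 8.07 in R186, with the next line at 6.09 and a median of 4.12. The 15 measured genes around it deviated in those lines by at most 0.56 and 0.21. In both cases the neighbouring genes deviated far less than the pseudogene in the lines concerned. These deviations were not set against the neighbours' own spread, and with 1 array per line the signals had no repeat. A count of probe sets in which 1 line lay at least 1 log2 above all others, chosen after values had been seen, held 0.251% of all probe sets and 2 of the 899 pseudogenes, a share of 0.222%. The second was AT5G28430, an _s_at probe set, at 5.71 in R197 against 3.73 in the next line.

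**Figure D2:**
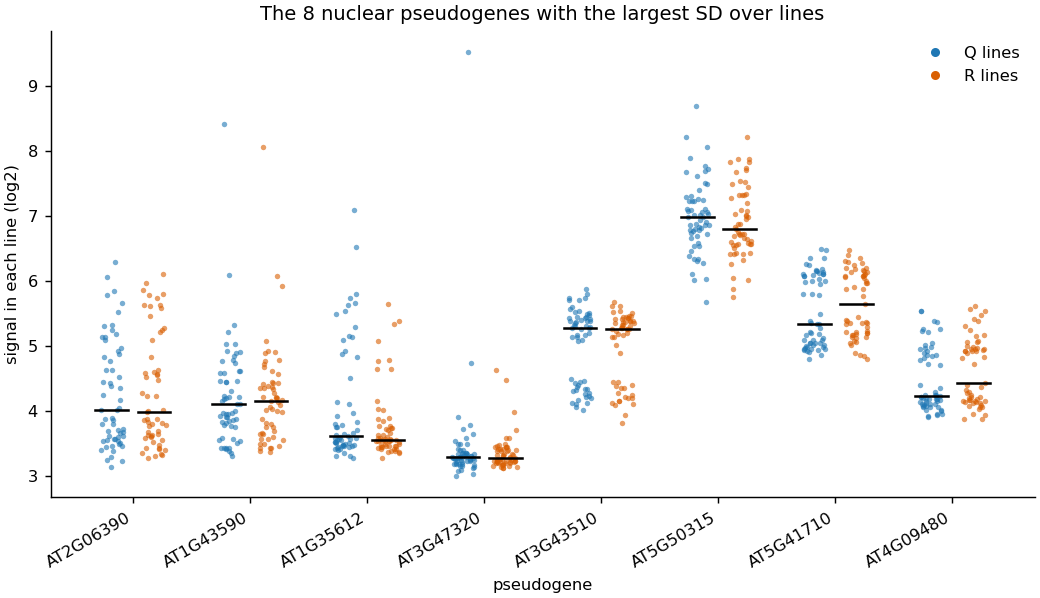
Log2 signal in each line for the 8 nuclear pseudogenes with the largest SD, with Q lines in blue, R lines in orange and a black bar at each median. AT3G47320 stands at 9.51 in 1 Q line only, AT1G43590 above 8 in 1 line of each letter, and AT3G43510 and AT5G41710 fall into an upper and a lower cluster in both letters.

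Signals in 2 clusters are what a parental difference at a locus gives in inbred lines, whether in transcript level or in the sequence under the probes. No sequences were used, so which of these lay behind a cluster was not tested. A probe set was called bimodal when a fit of 2 normal components put the modes at least 4 SD and 1 log2 apart with at least 20% of lines in the smaller one. This held for 0.989% of all probe sets and for 1 of the 899 pseudogenes, AT3G43510 (0.111%). In Q lines its lowest, median and highest signals were 4.02, 5.28 and 5.87, and in R lines 3.81, 5.26 and 5.67. Its modes stood at 4.25 and 5.38 log2, 6.57 SD apart. The upper mode held 77 of 116 lines, 38 of them Q and 39 R, and this departed from equal shares (two-sided exact binomial test, adjusted p = 0.0132 over 124 bimodal nuclear genes, 7 of which departed). Its modes followed those of bimodal genes on both sides. The lines with non-matching modes were 11 of 116 against AT3G29280, 1019 places before it in gene order (9.48%, 95% Wilson interval 5.38 to 16.2), and 9 of 116 against AT3G44630, 209 places after it (7.76%, 4.14 to 14.1). AT3G44630 departed from equal shares too, with 82 of 116 lines in its upper mode (exact binomial test, adjusted p = 0.000400). AT3G29280 had 72 of 116 and was not called (adjusted p = 0.113). The departure was thus not particular to the pseudogene. The nearest measured neighbours of AT3G43510, AT3G43500 and AT3G43520, correlated with it at r = 0.10 and 0.33 over the 116 lines.

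Several pseudogenes lay just outside the thresholds. AT5G41710 had modes 0.99 log2 and 5.51 SD apart, with 55 lines in the upper one. AT4G09480 had modes 0.94 log2 and 4.95 SD apart, and AT2G13970 had modes 0.71 log2 and 4.18 SD apart. These 3 failed only the distance of 1 log2. AT1G35612 missed the share, with 19.8% of lines in the smaller component, and AT2G06390 missed the separation, at 3.74 SD. With modes of at least 0.5 log2 the count of bimodal pseudogenes was 5, beside 1.73% of the other nuclear probe sets, and with modes of at least 3 SD it was 2, beside 1.24%. For AT5G41710, 0 of 115 lines with clear modes were recombinant against AT5G41685, 3 places away, which allows a share of up to 3.23% (Wilson), and the signals of the pair correlated at r = 0.93. For AT2G13970, 2 of 110 lines did not match AT2G14460, 71 places away (1.82%, 0.500 to 6.39). AT4G09480 did not match AT4G10030, 79 places away, in 7 of 116 lines (6.03%, 2.95 to 11.9).

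Local linkage asks whether a signal follows the parental allele at the pseudogene's own place. Bimodal genes that were not pseudogenes of this set served as markers and gave a score between 0 and 1 to 89 stretches of 200 consecutive genes, and each probe set was tested against the nearest scored stretch of its chromosome with limma, with the letter as a covariate. An effect is the signal at score 1 minus the signal at score 0, and the direction of a score is arbitrary, since no mode was assigned to a parent. Whether a linked signal reflects transcript level or a sequence difference under the probes was not tested. The test called 34.9% of 13367 nuclear probe sets and 60 of the 899 pseudogenes (6.67%). Among the other nuclear probe sets it called 4582 (37.1%). Called pseudogenes had smaller effects, with a median size of 0.10 log2 against 0.17 and a median of 8.45% of the variance between lines against 16.3%. The score accounted for over 25% of the variance in 14 pseudogenes (1.56%), against 13.1% of the other probe sets. Of the 60 effects, 29 were positive and 31 negative.

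The strongest local signal was at AT5G41710. The 61 lines with the lower score lay at 4.80, 5.12 and 5.50 log2 (lowest, median and highest), and the 54 lines with the higher score at 5.65, 6.11 and 6.49, with no overlap. The effect was 0.98 ± 0.04 log2 (SE), 87.1% of the variance (limma, adjusted p = 2.27e-50). AT2G13970 lay at 4.82, 5.04 and 5.33 in 59 lines and at 5.10, 5.73 and 6.56 in 57 lines. Only the edges of these groups overlapped, and the effect was 0.69 ± 0.03, 77.3% of the variance (adjusted p = 9.75e-37).

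AT1G64270 ran the other way along its score, with 4.61, 4.99 and 5.68 in 64 lines at the lower score and 4.12, 4.37 and 4.63 in 48 lines at the higher score. Its effect was -0.60 ± 0.04 (69.5% of the variance, limma adjusted p = 1.04e-29). It correlated at r = 0.63 with AT1G64260 beside it and at 0.48 with AT1G64290, 3 places away. AT4G09480 and AT3G43510 had effects of 0.80 ± 0.06 and 0.95 ± 0.07, with 64.4% and 59.4% of the variance, and single lines of each score lay in the range of the other. AT4G09480 correlated at r = 0.75 with AT4G09490, the next gene.

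AT3G29120, an _s_at probe set, was flat in the 44 lines at the lower score (2.96, 3.16 and 3.40) and spread widely in the 72 lines at the higher score (3.15, 3.86 and 4.97). Its effect was 0.73 ± 0.07, 51.2% of the variance (limma, adjusted p = 1.57e-18). Its signal ran against that of the next gene, AT3G29130, at r = -0.48. CYTOSLEEPER, one of the SLEEPER genes, which derive from hAT-type transposases, had a mean of 4.57 log2. It lay at 4.45, 4.71 and 5.08 in 47 lines and at 4.18, 4.50 and 4.78 in 68 lines. The effect was -0.24 ± 0.03, 45.5% of the variance, in groups that overlapped.

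**Figure D3:**
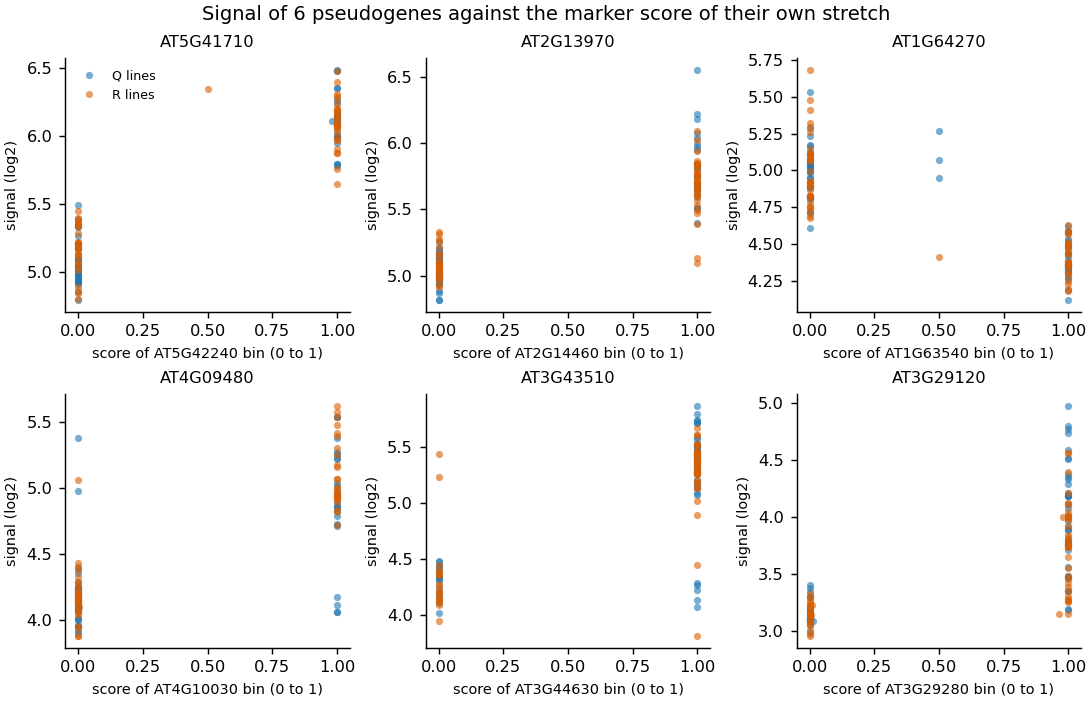
Log2 signal of the 6 pseudogenes with the strongest local linkage in each line (Q blue, R orange) against the marker score of the nearest scored stretch, named by its leading marker gene. AT5G41710 shows no overlap between the ends of the score, AT1G64270 falls along its score, and AT3G29120 is spread widely at score 1 and narrowly at score 0.

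The next 8 local pseudogenes had shares of variance from 33.4% down to 23.1%: AT2G23330, AT5G14830, AT4G11200, AT1G10160, AT2G36040, AT5G50315, AT1G35612 and AT1G43590. The bright AT5G50315 lay at 6.30, 7.23 and 8.69 in 59 lines and at 5.67, 6.66 and 7.52 in 54 lines, an effect of -0.59 ± 0.09. AT1G35612 and AT1G43590 had effects of -0.79 ± 0.12 and -0.77 ± 0.13 log2. The scores overlapped widely at both, with lowest lines of 3.36 and 3.28 at AT1G35612 and of 3.39 and 3.31 at AT1G43590. The sign at AT1G35612 was taken against AT1G34570, and against another leading marker, AT1G32360, it was the opposite (0.75).

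The lower share of local linkage was also seen within classes of signal and of place. Of the classes of signal, only that from 4 to 5 log2 had closely matched medians. Under 4 log2 it was 25 of 596 pseudogenes (4.19%) against 330 of 2304 other probe sets, from 4 to 5 log2 9.82% against 26.3%, and from 5 to 7 log2 15.8% of 76 against 44.9%. Pseudogenes lay farther from markers: 244 of them (27.1%) were inside a scored stretch, against 6169 of the 12336 others. Inside a scored stretch, 22 of 244 pseudogenes (9.02%) and 2407 of the 6169 others were called. In stretches where annotated pseudogenes made up under 10% of genes, 24 of 179 (13.4%) and 37.6% were called, and where they made up 50% or more, 12 of 331 (3.63%) and 15.9%. Kind of probe set moved with the count as well: 55 of 712 unmarked, 5 of 109 _s_at and 0 of 78 _x_at pseudogenes were called. The transcribed pseudogenes had 12 of 65 called (18.5%). The part of signal, marker distance and shared probes in the difference was not tested jointly.

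**Figure D4:**
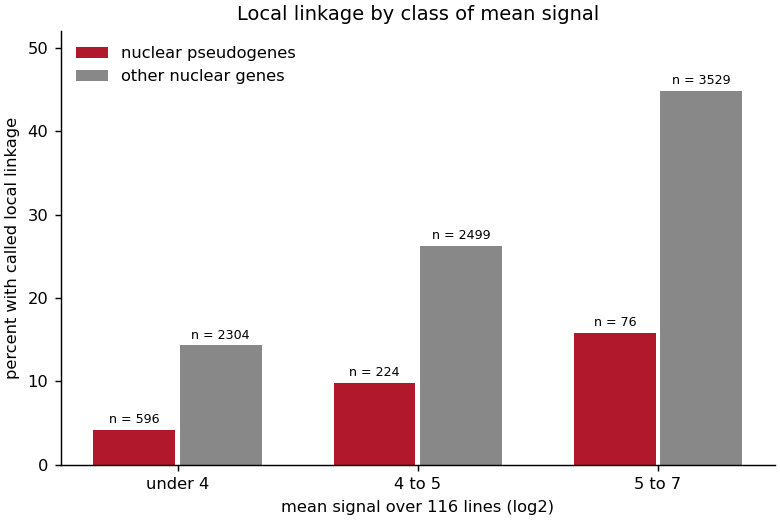
Percent of probe sets with called local linkage (limma, adjusted p under 0.05) by class of mean log2 signal for nuclear pseudogenes (red) and other nuclear genes (grey), with the number of probe sets above each bar. Over the 3 classes of signal shown, the share is higher in the brighter class for both kinds of gene and lower for the pseudogenes, for example 9.82% against 26.3% from 4 to 5 log2 and 15.8% against 44.9% from 5 to 7 log2.

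Linkage to a distant stretch was tested against every stretch more than 3 stretches away or on another chromosome, with the own stretch and the letter as covariates, and each p was multiplied by the number of stretches tried. This called 20.4% of the nuclear probe sets and 35 pseudogenes (3.89%), against 21.7% of the other nuclear genes. For 27 of the 35 the stretch was on another chromosome, as it was for 2098 of the 2679 called probe sets of other nuclear genes. The count moved with the setting: it was 10 (1.11%) with 10 principal components as covariates and 55 (6.12%) with each array centred on its median. The other nuclear genes moved as well, to 3.88% and 23.5%.

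The largest distant t was at AT4G08110. It lay at 3.19, 3.81 and 4.56 log2 in 43 lines at the lower score of AT4G04180 and at 3.14, 3.37 and 3.58 in 73 lines at the higher score. The effect was -0.44 ± 0.04 log2, 46.6% of the variance left by the covariates (limma, adjusted p = 3.95e-12). AT4G04180 lies 748 places away on the same chromosome, so a window of 6 stretches leaves its stretch out. The best stretch left had a share of 5.82% and was not called, which says nothing about the link to AT4G04180. AT3G43510 and AT4G09480 had distant calls on their own chromosomes too, 36.5% at AT3G29280 and 24.7% at AT4G04180. For these and for AT4G08110, the linked gene was the nearest marker before the pseudogene in gene order. The fitted modes of AT4G08110 did not match AT4G04180 in 17 of 112 lines. They did not match AT4G10030, the nearest marker after it, in 40 of 112. Whether these calls reflect a separate locus or the pseudogene's own place was not tested. The wider window also leaves out the stretch of AT3G29280, and no stretch left was called for AT3G43510 (6.41% at most). AT4G09480 lost its call with 10 principal components as covariates (limma, adjusted p = 0.195). AT1G45090, whose probe set ID marks shared probes, was linked to AT1G63540, also on its own chromosome, with 25.6% of the variance.

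Pseudogenes linked to another chromosome had small effects. AT4G18410, on chromosome 4, lay at 5.36, 5.59 and 6.04 in 55 lines and at 5.16, 5.44 and 5.85 in 54 lines at the higher score of AT3G19520, an effect of -0.20 ± 0.03 (29.6%, limma adjusted p = 4.60e-06). AT5G34920, an _s_at probe set of chromosome 5, lay at 3.24, 3.50 and 3.82 in 60 lines and at 3.40, 3.77 and 5.37 in 51 lines at the higher score of AT1G56670, an effect of 0.38 ± 0.06 (29.5%, adjusted p = 5.09e-06). Its upper lines reached far beyond the lower group, while the medians differed less. With 10 principal components as covariates AT5G34920 was no longer called, with 11.3% of the variance. AT3G42500, AT3G42300, AT5G28130 and AT3G42340 followed, with 21.6% down to 15.8%, and each lost its call with the principal components (limma, adjusted p from 0.186 to 1.0). AT5G28130 also lost it with markers at least 5 SD apart (adjusted p = 0.124). The stretch led by AT1G22340 was the lead for 6 pseudogenes and for 179 other probe sets.

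Between Q and R lines, 3.07% of all probe sets were called and 1 pseudogene (0.111%). This was AT3G32270, at 5.44, 5.74 and 6.02 log2 in Q lines and 5.55, 5.82 and 6.25 in R lines. Its Q mean was 5.73 ± 0.13 and its R mean 5.83 ± 0.14, a difference of -0.09 ± 0.03 (SE, limma adjusted p = 0.0260), and the letters overlapped over most of their range. With 10 principal components as covariates the difference was -0.05 and not called (adjusted p = 0.479). At an unadjusted p under 0.05 stood 66 pseudogenes (7.34%), 54 of them lower in Q lines and 12 higher, against 18.2% of the other probe sets, of which 1115 were lower and 1126 higher. In limma the interaction of local linkage with the letter called 0% of the nuclear probe sets. No local effect was thus shown to differ between the letters. An unadjusted p under 0.05 was found for 53 pseudogenes (5.90%), near the 5.59% of the other nuclear probe sets.

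A set of pseudogenes from all 5 chromosomes varied together. AT4G04010, an _x_at probe set, had the most partners: 33 other pseudogenes correlated with it at Pearson r of at least 0.7 over the 116 lines, a limit chosen after values had been seen. The set of 34 held 4, 11, 10, 6 and 3 loci of chromosomes 1 to 5. Of these, 28 were _x_at, 3 _s_at and 3 unmarked probe sets, the last being AT5G32430, AT2G06390 and AT1G36550. Within the set r ran from 0.53 to 0.91 with a median of 0.73, a level that follows from how the 34 were picked. Over all pairs of the 78 _x_at pseudogenes the median r was 0.32 and over pairs of unmarked ones 0.12. How far these probe sets read the same transcripts was not tested.

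AT4G04010 itself lay at 5.13, 5.62 and 6.78 log2 in Q lines and at 5.01, 5.59 and 6.60 in R lines, so the letters overlapped over almost all of the range. AT1G32840 followed it most closely (r = 0.91), then AT3G32900 (0.91), AT2G02210 (0.90) and AT2G04980 (0.90). The mean over the 34 was 4.03 in the lowest line, 4.35 in the median line and 5.27 in the highest, Q148. It was 4.48 ± 0.31 (SD, n = 59) in Q lines and 4.43 ± 0.24 (SD, n = 57) in R lines. None of the 34 was called for local linkage, distant linkage or the letter, against 6.67%, 3.89% and 0.111% of all 899 pseudogenes. Among the 78 _x_at pseudogenes, 0 had called local linkage. These shares are low, so 0 calls among the 34 does not set them apart. The own stretch accounted for at most 2.99% of the variance of any of the 34.

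The same lines were high for many plastid transcripts. Of 69 probe sets of plastid genes, 18 correlated with AT4G04010 at r of at least 0.7, as did 6 of 67 AT2G07 probe sets and 2 of 12336 probe sets of other nuclear genes. The largest r among plastid genes without 2 modes were 0.84 for ndhG (rho 0.81), a subunit of the plastid NDH complex, 0.84 for petD (rho 0.81), a subunit of the cytochrome b6f complex, and 0.82 for ycf4 (rho 0.80), a photosystem I assembly factor. Without the 2 lines farthest from the median of the plastid gene these were 0.83, 0.83 and 0.80. For rps14, whose lines fall into 2 modes, r was 0.60 in the 74 lower lines and 0.59 in the 42 upper lines, and for petN 0.54 in 73 and 0.30 in 43. For ndhF, the other plastid gene with 2 modes among the 18, r was 0.62 in 75 lower lines and 0.10 in 41 upper lines. Among the AT2G07 loci left out of the set, AT2G07673 and AT2G07722 had r of 0.84 and 0.83. The difference between 3' and 5' probe sets of the array's actin, GAPDH and ubiquitin controls correlated with AT4G04010 at 0.04, and the array median at 0.13. The silencing and decay genes measured had r from 0.00 to 0.24. The part of the plastid and AT2G07 signals in the shared variation of the 34 was not tested.

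**Figure D5:**
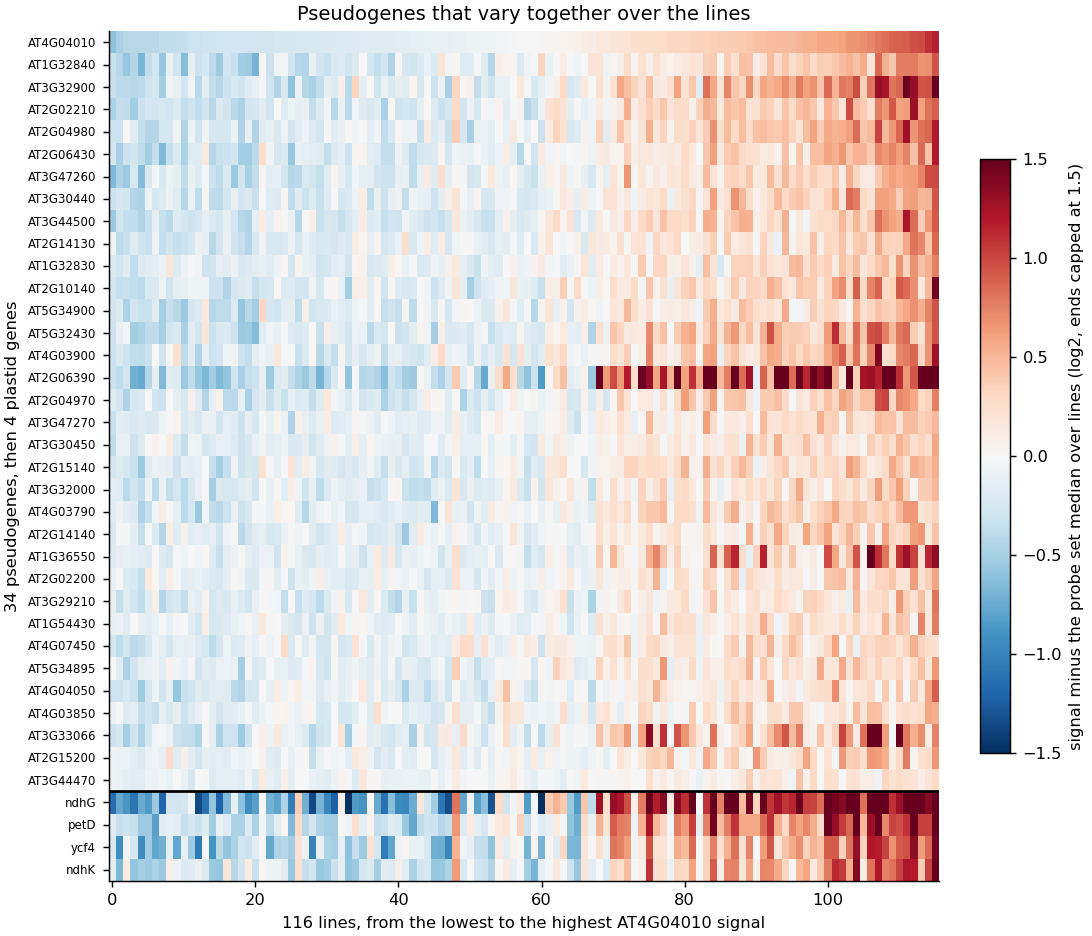
Signal of the 34 pseudogenes that vary together and of 4 plastid genes (below the black line) in 116 lines, as log2 difference from each probe set's median, with lines ordered by the signal of AT4G04010 and colours capped at 1.5. The 34 were picked by their r with AT4G04010, which orders the lines, so their reddening together toward the right follows from that choice. AT2G06390 and ndhG redden most of all. The plastid genes shown follow the same order of lines, and 18 of 69 plastid probe sets reached r of 0.7 with AT4G04010.

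With r of at least 0.6 the connected pseudogenes were sets of 53, 26 and 6. The set of 26, of which 23 were unmarked probe sets, had means from 3.72 to 6.55 log2 and a median SD of 0.164. In limma 0 of the 26 had called local and 2 called distant linkage, against 6.67% and 3.89% of all 899 pseudogenes. Few pseudogenes had any close partner of their kind: 4.45% had another pseudogene at r of at least 0.7, against 21.9% of the other nuclear probe sets that had one among themselves, a far larger pool. Beside a gene of another class, 4 of 854 pairs (0.468%) of a pseudogene and its nearest measured neighbour reached r of 0.5, against 2.03% of 11711 neighbouring pairs of other nuclear genes. Among 472 pairs of neighbouring pseudogenes, 12 (2.54%) did. Most of these 12 pairs lay within the set picked by its r with AT4G04010, and almost all of their probe sets were _x_at. Their r ran from 0.68 (AT5G34895 beside AT5G34900) to 0.83 (AT2G04970 beside AT2G04980). The share among neighbouring pseudogenes outside that set was not measured, so the figure does not describe neighbouring pseudogenes in general.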

How the data were processed

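Seed RNA of 116 lines was hybridised to 1 array each. The authors deposited RMA signals on a log2 scale, as the submitters' processing notes and the values show, with no version named. RMA removes background, equalises array distributions and compresses dim signals. Array controls (64) were left out; 22746 probe sets were tested, of which 8730 had no gene in the probe annotation, 503 had several and 77 did not match the RefSeq table, which served for names, biotypes and gene order only. Tests used limma 3.58.1 in R 4.3.3 with Benjamini-Hochberg adjustment over all probe sets of a test and a threshold of 0.05, and were tested on simulated data. A bimodal call also needed a BIC gain of 10 over a single component, and recombinant counts used only lines whose posterior was under 0.1 or over 0.9. Python 3.11.15, numpy 2.4.6, pandas 2.3.3, scipy 1.17.1, networkx 3.6.1 and matplotlib 3.10.9 did the rest. Members, lists and thresholds were chosen with earlier results of these data known. Named pseudogenes were the 15 highest by mean, by SD and by local share, the 10 strongest distant, all bimodal or called between letters, and any with a symbol; others were chosen after their values were seen. No sequences were used, so promoter motifs were not searched.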

Additional observations from a re-analysis of the deposited data

How the results depend on the processing

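No paired analysis was possible because line numbers name unrelated lines and each line has 1 array. The count of 60 local pseudogenes was 48 to 62 under each other setting run on all probe sets or on unmarked ones, and 15 of 79 where a mean of at least 5 log2 was required; 52 of the 60 were also called with each array centred and 30 with 10 principal components. The count of 35 distant pseudogenes was 10 with 10 principal components (6 shared), 55 with centred arrays (34 shared) and 64 without the own-stretch score. At a mean of at least 5 it was 10 of 79, against 33.9% of the other nuclear probe sets. With other bins, markers or windows and on unmarked probe sets the distant count was 28 to 35. The single bimodal pseudogene became 5 at 0.5 log2, 2 at 3 SD, 3 with a smaller component of 0.1, and 0 at a mean of at least 5, since AT3G43510 has a mean just under that. The 1 call between letters became 0 with 10 principal components. The local effect at AT1G35612 turned to 0.75 with bins of 400 genes and to 0.60 with markers at least 5 SD apart, both against AT1G32360. Centring puts the median signal at -2.25 relative to the array median, by construction. The interaction count was 0 in limma at each setting run. The causes of the other changes were not tested. No detection call was held, so how far array background limits the pseudogenes under 4 log2 was not measured.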
